A study of Stenocereus queretaroensis with 6 samples.

Results

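Plants make most protein amino acids in their plastids, along routes named for the compound they start from. Aspartate feeds lysine, threonine, methionine and, by way of threonine, isoleucine. Pyruvate feeds valine and leucine, citrulline and aspartate feed arginine, and phosphoribosyl pyrophosphate feeds histidine. In plants, several end products inhibit an enzyme near the start of their own branch. The transcripts of these routes were examined in cells of the columnar cactus *Stenocereus queretaroensis*, grown in suspension on 2 media that differed in their sugar supply.

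The members are the assembled transcript clusters whose best Swiss-Prot protein hit is described as an enzyme of these routes. They were found by words in that description, such as aspartokinase, dihydrodipicolinate, diaminopimelate, acetolactate synthase, isopropylmalate, argininosuccinate or histidinol, which holds no measured value. The words took 197 of 170970 clusters, with 72 distinct Swiss-Prot hits. Of these, 66 belong to the aspartate family, 76 to the branched-chain route (isoleucine, valine and leucine), 16 to the last steps of arginine synthesis and 30 to histidine synthesis. The other 9 were placed in none of these routes. Of them 5 have a hit to a bacterial cell wall ligase that uses diaminopimelate. Another 3 have a hit to a homoserine or threonine exporter and 1 to homoserine O-succinyltransferase. The nitrogen assimilation enzymes are not included. No genome was used here, so clusters have no chromosome positions.

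Each medium had 3 libraries: suspension cells on MS, a mineral medium in wide use for culturing plant cells, with 3% sucrose (titles SqY) or with 8% sucrose (titles SqR). The labels do not say what the letters Y and R stand for, and they name no genotype, age of culture or time on the medium. Nor do they say whether replicates were separate cultures, so the p-values reflect the spread between libraries, which may be technical. RNA was taken from cells in bulk, so fewer cells that express a gene and less RNA per cell cannot be told apart. The libraries held 35476032 to 41147265 expected counts, of which 0.2431% to 0.2559% lay on members at 3% sucrose and 0.1265% to 0.1355% at 8% sucrose. Replicate 1 at 3% sucrose stood apart from the other 5 libraries on the second principal component, which held 6.9% of the variance, and the counts of members called were also taken without it.

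Most of the abundant members were lower at 8% sucrose. The summed level of the 197 members was 2572 to 2751 CPM (CPM are expected counts scaled to a common library total, with TMM factors) in the libraries at 3% sucrose and 1209 to 1314 CPM in those at 8% sucrose. The means were 2641 ± 96.3 and 1262 ± 52.9 CPM (SD, n = 3), a ratio of 0.478, and the media did not overlap. Of the members 116 had enough counts to be tested and 81 did not. At an adjusted p under 0.05 (edgeR quasi-likelihood test, Benjamini-Hochberg adjustment over all 85038 clusters tested), 46 members fell, 16 rose and 54 did not pass. The share that fell was 39.7%, against 25.6% of all tested clusters, and the share that rose was 13.8%, against 29.1%. The median log2 fold change (8% over 3% sucrose) of the tested members was -0.55, and that of all tested clusters was 0.19. Without replicate 1 at 3% sucrose 46 members fell and 16 rose. The authors' deposited table has a q-value for 192 members and calls 49 of them lower and 18 higher. These are 25.5% and 9.38%, against 14.7% and 15.7% of all clusters with a q-value in the authors' deposited table.

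The calls divided by abundance. Of the 53 members with a mean of at least 100 counts, 42 fell, or 79.2%, against 43.5% of all tested clusters of that abundance. Another 5 rose, or 9.43%, against 31.8%. Of the 63 tested members under 100 counts, 4 fell, or 6.35%, against 15.5%, and 11 rose, or 17.5%, against 27.5%. The 144 members under 100 counts together held 65.77 ± 5.73 CPM (SD, n = 3) at 3% sucrose and 76.77 ± 2.69 CPM at 8% sucrose, a small part of the total. Libraries of one medium lay wholly below those of the other at 8% sucrose for 51 tested members and wholly above for 20. Among all tested clusters these shares were 31.0% and 36.6%.

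**Figure D1:**
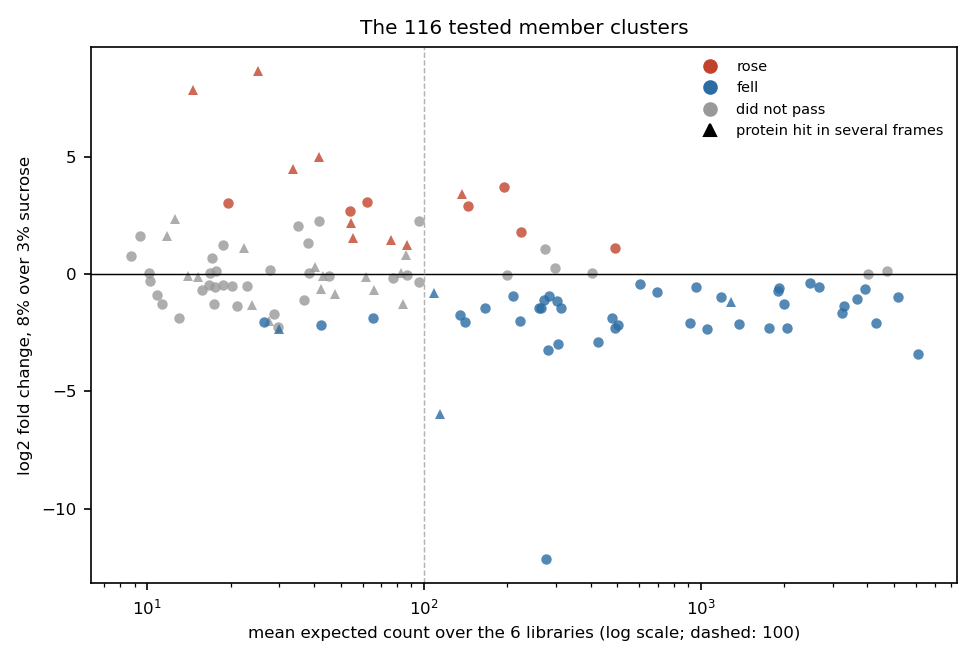
Each point is 1 of the 116 tested members, at its mean expected count over the 6 libraries (log scale) and its log2 fold change, 8% over 3% sucrose. To the right of the dashed line at 100 counts 42 members fell and 5 rose, and to its left 4 fell and 11 rose. Triangles mark clusters whose protein hit lies in several reading frames.

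Several clusters often share a protein hit. The assembly can divide one gene, its alleles or near-identical copies between clusters, so the change of any 1 cluster among several with the same hit is uncertain. The clusters of each enzymatic step were therefore also summed and tested as 1 row, with all other clusters summed by hit, which gave 44723 rows. The words reached 20 steps with clusters that could be tested. Of these 17 fell, 1 rose and 2 did not pass (edgeR quasi-likelihood, adjusted p under 0.05). Among rows with a mean of at least 100 counts, which all 20 steps had, 48.0% fell and 34.4% rose. The fall was at least 2-fold for 9 steps, and of all rows with a mean of at least 100 counts 27.0% fell that far. The median of the 20 step sums was -0.96 on the log2 scale, and that of all summed rows was 0.22.

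**Figure D2:**
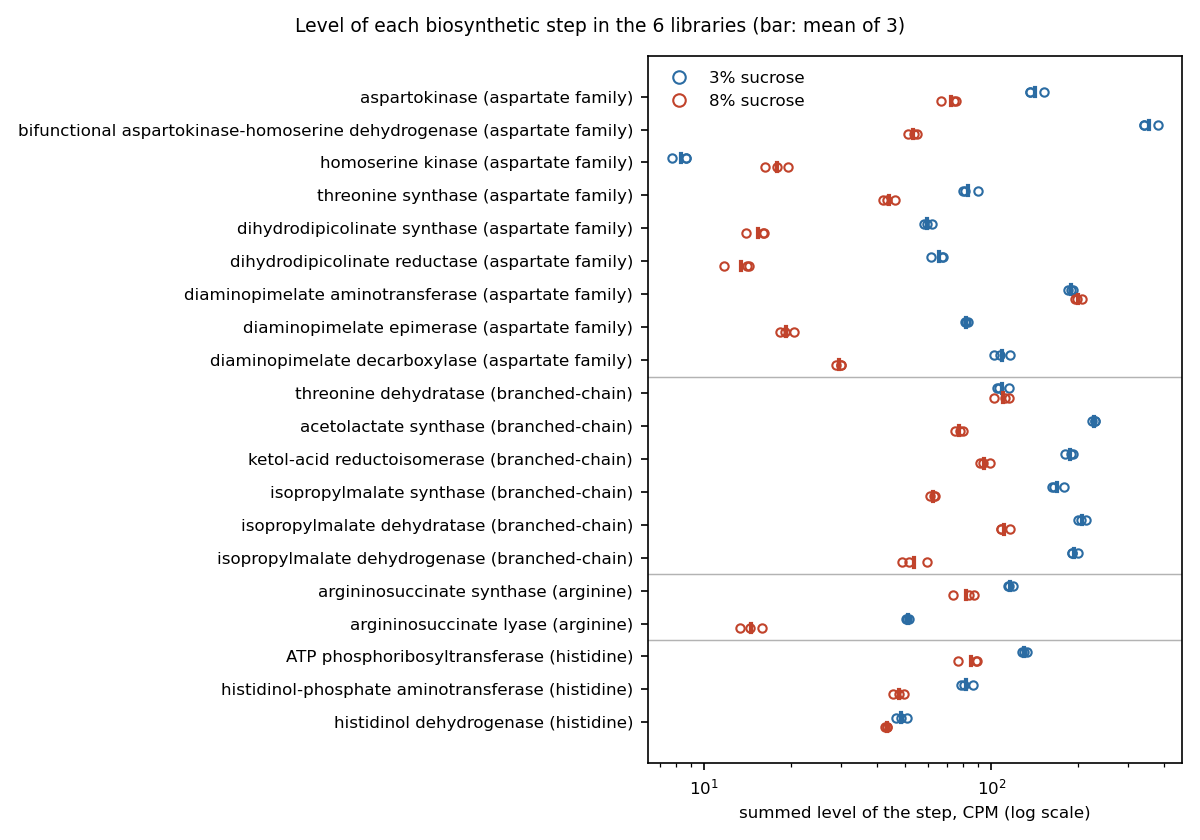
Summed level of each step reached by the search words, in CPM on a log scale, 1 point per library (blue 3% sucrose, red 8% sucrose) with a bar at the mean of 3. The 17 steps that fell have every library at 8% sucrose below every library at 3% sucrose, with the smallest gap at histidinol dehydrogenase. Homoserine kinase lies above, diaminopimelate aminotransferase lies slightly above but did not pass the test, and threonine dehydratase overlaps.

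The aspartate family starts with aspartokinase, which phosphorylates aspartate. Plants have aspartokinase both as a separate enzyme and joined in 1 protein to homoserine dehydrogenase, which makes homoserine later in the route. The joined form had the largest change of the 20 steps. Its summed level was 338.8, 379.7 and 340.1 CPM in replicates 1 to 3 at 3% sucrose and 51.07, 55.08 and 53.69 CPM at 8% sucrose. The libraries of the media were far apart. The log2 fold change was -2.71 ± 0.06 (SE) with an adjusted p of 3.91e-08 in edgeR's quasi-likelihood test.

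One cluster of 3218 bp (Cluster-2051.66720, hit bifunctional aspartokinase/homoserine dehydrogenase 2 of *Arabidopsis*) made up 86.3% of that step at 3% sucrose and 54.4% at 8% sucrose. It fell from 304.4 ± 22.6 to 28.98 ± 2.3 CPM (SD, n = 3), a change of -3.39 ± 0.09 (SE) on the log2 scale (adjusted p 9.68e-07, edgeR). Cluster-2051.42319 fell less, from 42.83 ± 2.05 to 21.72 ± 2.08 CPM. Its Swiss-Prot hit is a bifunctional enzyme of *Escherichia coli*, but its best nucleotide hit is a homoserine dehydrogenase of beet, so its name is uncertain. By FPKM (the authors' fragment values scaled to length and depth, which allows levels to be compared between genes), the joined enzyme had rank 1 of the 20 steps at 3% sucrose, at 131.3 ± 6.87 FPKM (SD, n = 3). It had rank 12 at 8% sucrose, at 29.9 ± 0.86 FPKM.

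Separate aspartokinase fell from 141.7 ± 9.35 to 72.16 ± 4.52 CPM as a step, a change of -0.96 ± 0.07 (SE) on the log2 scale (adjusted p 9.11e-06, edgeR). Its main cluster (Cluster-2051.57542, aspartokinase 1) read 130.2, 144.6 and 131.9 CPM at 3% sucrose and 59.65, 65.98 and 66.06 CPM at 8% sucrose. A small cluster with the same hit (Cluster-2051.91308) rose from 0.378 ± 0.124 to 2.49 ± 0.678 CPM. Aspartokinase therefore held clusters that moved in opposite directions, the smaller of them at no more than 3.27 CPM in any library.

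From homoserine, homoserine kinase and threonine synthase make threonine. Homoserine kinase was the 1 step of the 20 that rose, and a single tested cluster held it (Cluster-2051.63150, 1324 bp). It read 8.65, 8.62 and 7.73 CPM at 3% sucrose and 19.65, 17.96 and 16.32 CPM at 8% sucrose, and the media did not overlap. The cluster's log2 fold change was 1.11 ± 0.11 (SE), adjusted p 0.000243 in edgeR. By FPKM it was the lowest of the 20 steps at 3% sucrose, at 7.50 ± 0.35, and had rank 18 at 8% sucrose, at 17.99 ± 1.52.

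Threonine synthase fell from 83.27 ± 5.6 to 43.91 ± 2.15 CPM as a step. It had 2 main clusters with the same hit and nearly the same length, 1986 and 1931 bp. Cluster-2051.67503 read 64.47, 63.86 and 60.3 CPM at 3% sucrose and 40.96, 42.5 and 39.99 CPM at 8% sucrose. Cluster-2051.77506 read 16.25, 25.84 and 19.07 CPM at 3% sucrose and 2.37, 3.73 and 2.07 CPM at 8% sucrose. Both fell without overlap, with log2 fold changes of -0.61 ± 0.06 and -2.91 ± 0.28 (SE) and adjusted p of 0.000196 and 0.000206 in edgeR. The difference between these 2 changes was not tested.

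The lysine branch runs from aspartate semialdehyde through dihydrodipicolinate and diaminopimelate. Of its 5 steps 4 fell, to between 0.204 and 0.272 of their level at 3% sucrose, and the aminotransferase did not pass the test. Among all summed rows with a mean of at least 100 counts 48.0% fell, and 27.0% fell at least 2-fold. Dihydrodipicolinate synthase, the entry enzyme that lysine inhibits in plants, fell from 59.95 ± 1.93 to 15.42 ± 1.27 CPM (log2 fold change -1.94 ± 0.07, SE). Its main cluster (Cluster-2051.37180) read 47.39, 48.86 and 48.64 CPM at 3% sucrose and 9.08, 9.92 and 9.49 CPM at 8% sucrose, with an adjusted p of 1.41e-06 in edgeR. Dihydrodipicolinate reductase fell from 65.56 ± 3.45 to 13.39 ± 1.42 CPM. Of its 6 tested clusters 5 fell, where 25.6% of all tested clusters fell, and the other did not pass. The largest of them (Cluster-2051.85044) fell from 22.56 to 5.04 CPM.

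Diaminopimelate epimerase, which makes the meso form of diaminopimelate, fell from 81.89 ± 0.963 to 19.32 ± 1.15 CPM. Its main cluster (Cluster-2051.67835) read 80.26, 81.41 and 79.57 CPM at 3% sucrose and 14.84, 18.28 and 16.27 CPM at 8% sucrose. Diaminopimelate decarboxylase, which releases lysine, fell from 108.6 ± 7.38 to 29.53 ± 0.67 CPM, and 2 of its clusters (Cluster-2051.78303 and Cluster-2051.90875) held most of that sum at 3% sucrose. Those 2 clusters fell with log2 fold changes of -2.13 ± 0.08 and -2.11 ± 0.12 (SE). The 5 other tested clusters of the decarboxylase, each under 100 mean counts, did not pass the test.

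Diaminopimelate aminotransferase went from 188.8 ± 3.56 to 200.2 ± 5.34 CPM. The step sum thus differed by 0.10 ± 0.04 (SE) on the log2 scale, with an adjusted p of 0.072 in edgeR. By FPKM it had rank 3 of the 20 steps at 3% sucrose and rank 1 at 8% sucrose. The main cluster (Cluster-2051.80696, hit probable LL-diaminopimelate aminotransferase of rice) read 120.5, 125.6 and 116.5 CPM at 3% sucrose and 129.5, 135.8 and 133.2 CPM at 8% sucrose. These did not overlap, yet the difference did not pass the test (adjusted p 0.0609). Another 4 clusters named LL-diaminopimelate aminotransferase rose, from at most 1.15 CPM in any library at 3% sucrose. They were Cluster-2051.83016, Cluster-2051.85691, Cluster-2051.85692 and Cluster-2051.90163, and the smallest adjusted p was that of Cluster-2051.85691, 5.99e-05, which rose from 0.896 ± 0.175 to 6.73 ± 0.357 CPM.

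The other abundant cluster of this step, Cluster-2051.95268, fell from 64.49 ± 1.42 to 39.06 ± 2.84 CPM. Its Swiss-Prot hit is an aminotransferase of *Mycobacterium*, and its nucleotide hit is a kynurenine--oxoglutarate transaminase of beet, so its place in lysine synthesis is uncertain. The clusters of the aminotransferase with a plant Swiss-Prot hit went from 124.1 ± 3.89 to 160.9 ± 2.53 CPM in sum, with 4 of 6 tested clusters that rose and 2 that did not pass. Among the members of the aspartate family 17 clusters fell, 7 rose and 14 did not pass of 38 tested. The share that fell was 44.7%, against 25.6% of all tested clusters, and the share that rose was 18.4%, against 29.1%. Of the 7 that rose, 4 were these aminotransferase clusters, and the others were homoserine kinase, Cluster-2051.91308 of aspartokinase and a diaminopimelate epimerase cluster (Cluster-2051.88161), whose call was lost under 4 of 12 refits.

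**Figure D3:**
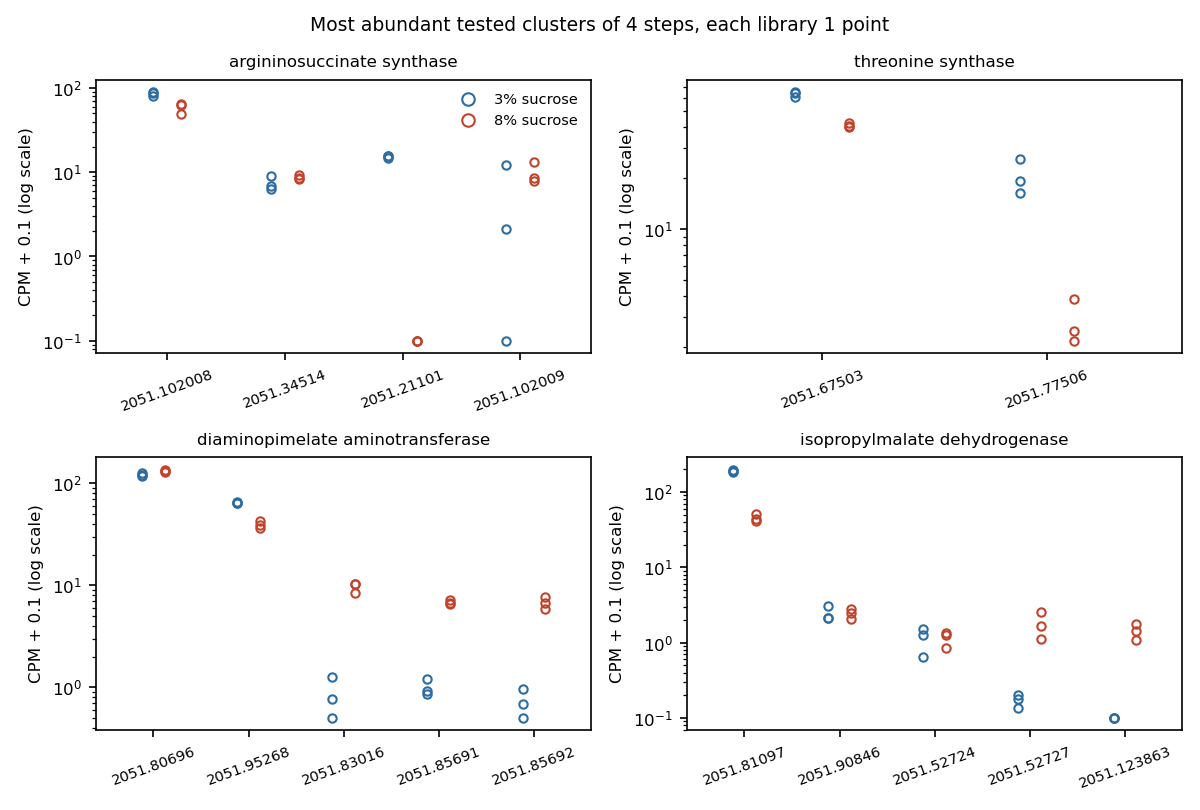
CPM + 0.1 (log scale) of the most abundant tested clusters of 4 steps, named by their cluster numbers, 1 point per library (blue 3% sucrose, red 8% sucrose). Within each step the first cluster is the most abundant, and clusters of the same step lie higher at 8% sucrose, lower or at overlapping values.

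Threonine dehydratase opens the way from threonine to isoleucine and is inhibited by isoleucine in plants. It did not pass the test. Its main cluster (Cluster-2051.71697) read 103.9, 115.2 and 106.4 CPM at 3% sucrose and 101.6, 114.8 and 110.8 CPM at 8% sucrose, and the libraries overlapped. The log2 fold change of that cluster was 0.01 ± 0.07 (SE), adjusted p 0.932 in edgeR, and its sign turned with the scaling. By FPKM the step had rank 16 at 3% sucrose, at 50.51 ± 2.99, and rank 3 at 8% sucrose, at 56.0 ± 3.1.

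Acetolactate synthase is shared by isoleucine, valine and leucine synthesis, and sulfonylurea and imidazolinone herbicides block it. In plants it has catalytic subunits and small regulatory subunits, through which the end products inhibit it. The step fell from 227.2 ± 3.41 to 77.25 ± 2.5 CPM, a change of -1.54 ± 0.05 (SE) on the log2 scale (adjusted p 1e-07, edgeR). The main catalytic cluster (Cluster-2051.57860) read 73.78, 81.34 and 76.53 CPM at 3% sucrose and 29.9, 32.12 and 32.3 CPM at 8% sucrose. The main cluster of small subunit 2 (Cluster-2051.53448) read 92.74, 94.61 and 91.88 CPM at 3% sucrose and 17.95, 19.25 and 20.22 CPM at 8% sucrose.

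Both acetolactate synthase clusters fell without overlap, with log2 fold changes of -1.30 ± 0.07 and -2.28 ± 0.07 (SE). The small subunit clusters together went from 149.1 ± 2.06 to 44.97 ± 1.53 CPM, and of 12 tested 4 fell and 8 did not pass. The share that fell was 33.3%, against 25.6% of all tested clusters, and none rose, against 29.1%. The call on 1 of the 4, Cluster-2051.53445, was lost under 5 of 12 refits. One of the clusters that did not pass (Cluster-2051.22379) was at 10.65 ± 0.264 and 11.11 ± 0.368 CPM with an adjusted p of 0.601. Cluster-2051.36125, with the same small subunit hit and a similar length, fell from 22.33 ± 1.75 to 4.52 ± 0.756 CPM.

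Ketol-acid reductoisomerase, the next shared enzyme, had 99.3% of its level at 3% sucrose in 1 cluster. That cluster (Cluster-2051.61333) read 187.8, 191.7 and 179.1 CPM at 3% sucrose and 89.99, 97.78 and 92.81 CPM at 8% sucrose. The media did not overlap, and the log2 fold change was -0.99 ± 0.06 (SE) with an adjusted p of 1.58e-05 in edgeR.

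Leucine synthesis leaves the shared route at isopropylmalate synthase. This step fell from 169.0 ± 8.36 to 62.74 ± 1.37 CPM, and its main cluster (Cluster-2051.83302) fell with a log2 fold change of -1.68 ± 0.08 (SE). Of 12 tested clusters of the synthase 3 fell, 8 did not pass and 1 rose, where 25.6% of all tested clusters fell and 29.1% rose. The 1 that rose, Cluster-2051.81920, went from 0.062 ± 0.0545 to 2.14 ± 0.196 CPM. It could enter the test only through the libraries at 8% sucrose, so only a rise could be called. The subunits of isopropylmalate dehydratase differed in size of change. The large subunit's main cluster (Cluster-2051.96486) read 130.0, 133.8 and 125.2 CPM at 3% sucrose and 46.1, 54.67 and 48.67 CPM at 8% sucrose. The small subunit's main cluster (Cluster-2051.72815) read 73.63, 78.59 and 73.89 CPM at 3% sucrose and 59.06, 59.04 and 57.52 CPM at 8% sucrose. Both fell without overlap, with log2 fold changes of -1.38 ± 0.08 and -0.36 ± 0.05 (SE), and the difference between them was not tested.

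Isopropylmalate dehydrogenase, the oxidising step of the leucine branch, fell from 193.9 ± 5.03 to 53.61 ± 5.64 CPM, and by FPKM it had rank 2 at 3% sucrose and rank 9 at 8% sucrose. Its main cluster (Cluster-2051.81097, 1799 bp) read 187.3, 196.7 and 185.6 CPM at 3% sucrose and 40.53, 51.47 and 42.85 CPM at 8% sucrose, an adjusted p of 7.53e-06 in edgeR. Against it 3 long clusters with the same hit rose. Cluster-2051.123863 (4613 bp) was at 0 in the 3 libraries at 3% sucrose and at 0.976, 1.68 and 1.33 CPM at 8% sucrose, at least 16.0-fold higher. That bound sets 3 counts in each library at 3% sucrose, 0.0784 to 0.0883 CPM, and it covers counting error only. Cluster-2051.52726 (4872 bp) was also at 0 at 3% sucrose, and Cluster-2051.52727 (4338 bp) rose from 0.0719 ± 0.0335 to 1.69 ± 0.73 CPM. These 3 clusters could enter the test only through the libraries at 8% sucrose, so only a rise could be called.

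Among the members of the branched-chain route 12 clusters fell, 4 rose and 27 did not pass of 43 tested. The share that fell, 27.9%, was close to the 25.6% of all tested clusters, and the share that rose was 9.3%, against 29.1%. The 4 that rose were Cluster-2051.81920 of the synthase and the 3 long clusters of the dehydrogenase, with at most 2.47 CPM in any library. All 4 carry protein hits in several reading frames. In sum these members went from 1093 ± 32.2 to 508.5 ± 22.8 CPM (SD, n = 3).

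Argininosuccinate synthase joins citrulline to aspartate, and argininosuccinate lyase then releases arginine and fumarate. The synthase fell less as a step, from 116.4 ± 2.35 to 81.38 ± 6.85 CPM (log2 fold change -0.50 ± 0.07, SE; adjusted p 0.000336 in edgeR). Its clusters, which share 1 hit, did not move together. The most abundant (Cluster-2051.102008) read 88.64, 80.95 and 87.75 CPM at 3% sucrose and 49.44, 64.32 and 63.1 CPM at 8% sucrose, a fall without overlap (log2 fold change -0.54 ± 0.11, SE).

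Cluster-2051.21101 (1763 bp) was present in every library of one medium and absent from the counts of the other. It read 15.41, 14.87 and 15.43 CPM at 3% sucrose and 0 at 8% sucrose, at least 193-fold lower against 3 counts in each library. It could enter the test only through the libraries at 3% sucrose, so only a fall could be called. Cluster-2051.34514 has almost the same length, 1747 bp, and did not pass the test, at 7.32 ± 1.36 and 8.66 ± 0.425 CPM. Cluster-2051.102009 varied within a medium, from 0 to 12.02 CPM at 3% sucrose, and did not pass either. Cluster-2051.102011 was the 1 cluster of the arginine steps that rose (log2 fold change 1.43 ± 0.46, SE; adjusted p 0.0363 in edgeR), but its libraries overlapped and the call was lost under 7 of the 12 refits.

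Argininosuccinate lyase fell from 51.08 ± 0.75 to 14.55 ± 1.3 CPM (log2 fold change -1.80 ± 0.08, SE; adjusted p 5.02e-07 in edgeR), and all 5 of its tested clusters fell, though the call on Cluster-2051.51074 was lost under 6 of 12 refits. The main one (Cluster-2051.51073) read 19.59, 20.43 and 21.42 CPM at 3% sucrose and 5.14, 6.02 and 5.51 CPM at 8% sucrose. The relative change was larger in Cluster-2051.51070, which fell from 6.27 ± 1.75 to 0.101 ± 0.129 CPM. Over both arginine steps 8 clusters fell, 1 rose and 3 did not pass of 12 tested, shares of 66.7% that fell and 8.33% that rose against 25.6% and 29.1% of all tested clusters.

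The histidine steps reached by the search words went in summed level from 260.7 ± 8.26 to 175.6 ± 8.79 CPM (SD, n = 3), a ratio of 0.674. Among the members the ratio was 0.426 for the aspartate family, 0.465 for the branched-chain route and 0.573 for arginine. The order depended on which steps were counted: with the remaining steps of each route the ratio was 0.544 for histidine, 0.508 for the aspartate family, 0.64 for the branched-chain route and 0.494 for arginine. Differences between families were not tested. ATP phosphoribosyltransferase, the entry enzyme that histidine inhibits, fell in its main cluster (Cluster-2051.27669) from 129.2 ± 2.91 to 82.87 ± 6.38 CPM. The log2 fold change of that cluster was -0.64 ± 0.07 (SE) with an adjusted p of 0.000336 in edgeR. Histidinol-phosphate aminotransferase fell from 81.84 ± 3.97 to 47.72 ± 2.09 CPM. Of its 9 tested clusters 4 were called lower, 2 higher and 3 neither, against 25.6% lower and 29.1% higher among all tested clusters. Its main cluster (Cluster-2051.112593) read 48.51, 51.13 and 46.25 CPM at 3% sucrose and 18.97, 22.78 and 21.54 CPM at 8% sucrose.

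Histidinol dehydrogenase, which completes histidine, changed little as a step, from 48.65 ± 2.15 to 43.16 ± 0.422 CPM (log2 fold change -0.16 ± 0.05, SE; adjusted p 0.0301 in edgeR). This call was lost under 4 of 13 refits. The step's FPKM went the other way, from 21.78 ± 1.21 to 22.95 ± 0.16 (SD, n = 3), without overlap between the media. Its clusters went both ways. The main cluster (Cluster-2051.112909) read 29.2, 31.45 and 32.15 CPM at 3% sucrose and 22.16, 19.64 and 21.52 CPM at 8% sucrose. Cluster-2051.112910 read 2.12, 3.11 and 2.75 CPM at 3% sucrose and 9.01, 9.97 and 8.75 CPM at 8% sucrose, the rise with the smallest adjusted p of the histidine clusters (log2 fold change 1.80 ± 0.19, SE; adjusted p 0.000276). Neither overlapped between the media. Over these histidine steps 7 clusters fell, 4 rose and 10 did not pass of 21 tested, shares of 33.3% that fell and 19.0% that rose against 25.6% and 29.1% of all tested clusters.

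Of the 9 members placed in none of these routes 2 were tested, both with a hit to the cell wall ligase of *Bacillus*. Their NR and nucleotide hits are beet sequences. Cluster-2051.113769 fell from 18.7 ± 2.09 to 13.83 ± 1.43 CPM (adjusted p 0.0234 in edgeR), and Cluster-2051.113770 fell with an adjusted p of 0.0239. Each call was lost under 2 of 12 refits.

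The remaining enzymes of the same routes, together with serine synthesis and the breakdown of these amino acids, were looked up by description in the same table. They comprise 273 clusters, of which 79 fell, 21 rose and 94 did not pass of 194 tested. The share that fell was 40.7%, against 25.6% of all tested clusters, and the share that rose was 10.8%, against 29.1%. Summed by step, 20 of 23 fell and 3 rose, where 48.0% of all summed rows with a mean of at least 100 counts fell and 34.4% rose. Of the remaining aspartate family clusters 3 fell and 5 rose of 15 tested, shares close to the 25.6% and 29.1% of all tested clusters. Their median log2 fold change was 0.80, and their difference from the members was not tested. The remaining branched-chain clusters summed to 482.4 ± 16.9 CPM at 3% sucrose and 498.9 ± 48.0 CPM at 8% sucrose, overlapping between the media. Aspartate-semialdehyde dehydrogenase, which stands between aspartokinase and both the lysine and the threonine branch, fell from 72.3 ± 3.55 to 10.78 ± 0.574 CPM (log2 fold change -2.73 ± 0.07, SE). This was close to the -2.71 of the joined aspartokinase. Cystathionine gamma-synthase, the entry to methionine, rose from 157.1 ± 6.45 to 183.2 ± 6.42 CPM, though its main cluster (Cluster-2051.69685) did not pass the test and 4 smaller clusters rose. Cystathionine beta-lyase fell by 0.21 on the log2 scale, a call lost with library totals only (adjusted p 0.303 in edgeR).

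In the branched-chain route outside the search words, dihydroxy-acid dehydratase fell from 128.3 ± 4.55 to 75.78 ± 3.04 CPM. The branched-chain aminotransferases, which carry out the last step of the route and also the first of breakdown, rose from 354.0 ± 14.5 to 423.1 ± 45.0 CPM (log2 fold change 0.27 ± 0.08, SE; adjusted p 0.0157 in edgeR). The call on their sum was lost under 7 of 13 refits and that on cystathionine gamma-synthase under 4 of 13. The aminotransferase clusters differed widely. Cluster-2051.70826 fell from 116.5 ± 5.49 to 77.51 ± 1.87 CPM, Cluster-2051.81941 rose from 57.57 ± 3.72 to 113.7 ± 13.5 CPM and Cluster-2051.89018 rose from 1.50 ± 0.761 to 115.8 ± 20.8 CPM.

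The earlier arginine steps held both the largest fall and the largest rise among the 43 step sums. The acetylornithine step fell from 231.5 ± 3.91 to 33.36 ± 1 CPM (log2 fold change -2.78 ± 0.05, SE), led by acetylornithine deacetylase (Cluster-2051.33958), from 158.7 ± 2.86 to 10.41 ± 0.528 CPM. Acetylglutamate synthase and kinase together rose from 86.28 ± 2.6 to 194.5 ± 6.99 CPM (log2 fold change 1.19 ± 0.05, SE). The rise lay in acetylglutamate kinase (Cluster-2051.77055), which phosphorylates acetylglutamate and in plants is inhibited by arginine, from 18.97 ± 2.01 to 141.9 ± 2.32 CPM. Carbamoyl-phosphate synthase, which also serves pyrimidine synthesis, fell from 372.3 ± 20.5 to 83.57 ± 4.52 CPM, and ornithine carbamoyltransferase from 68.26 ± 1.8 to 56.64 ± 1.41 CPM. The call on the carbamoyltransferase was lost with library totals only (adjusted p 0.0609 in edgeR).

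The other 4 histidine steps fell, from imidazoleglycerol-phosphate dehydratase at -2.05 ± 0.06 (log2 fold change, SE) to the phosphoribosyl-ATP pyrophosphohydrolase and cyclohydrolase at -0.63 ± 0.06. All 3 serine steps fell, with phosphoglycerate dehydrogenase going from 250.1 ± 11.9 to 121.7 ± 4.91 CPM. The 6 breakdown steps fell as well. Among all summed rows with a mean of at least 100 counts 48.0% fell. The lysine-degrading enzyme lysine-ketoglutarate reductase/saccharopine dehydrogenase went from 356.9 ± 13.2 to 124.6 ± 8.02 CPM and threonine aldolase from 265.8 ± 6.86 to 87.38 ± 2.83 CPM. Isovaleryl-CoA dehydrogenase, an enzyme of leucine breakdown, went from 163.1 ± 3.21 to 55.4 ± 2.1 CPM. Arginase, which splits arginine, had the smallest change of the breakdown steps, -0.42 ± 0.07 (log2 fold change, SE).

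**Figure D4:**
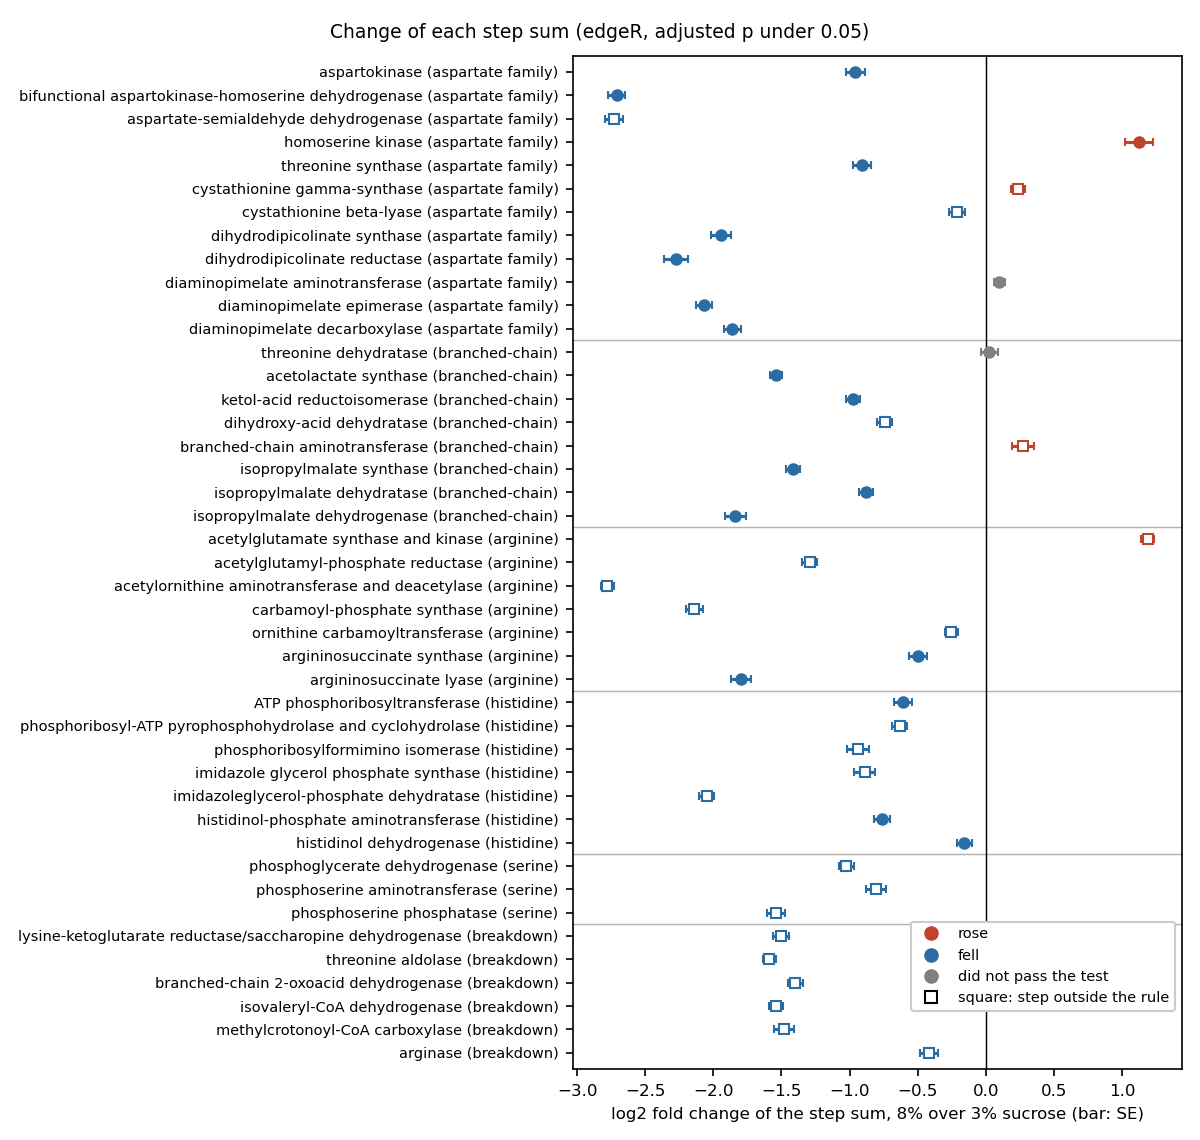
Log2 fold change (8% over 3% sucrose, bar SE) of each step sum, with filled circles for the 20 steps reached by the search words and open squares for the 23 other steps. All but 6 steps lie left of 0 and passed the test: homoserine kinase, cystathionine gamma-synthase, the branched-chain aminotransferases and acetylglutamate synthase and kinase rose, and diaminopimelate aminotransferase and threonine dehydratase did not pass.

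A feature of the assembly that neither the search words nor the test used was counted by call. The deposited annotation gives, for each cluster, the stretches that match a protein and their reading frame. The comparison was chosen after the values had been seen and is given without a test. A protein match spread over several frames was present in 9 of 16 members that rose, in 4 of the 42 members that fell and had such a match, and in 16 of 45 that did not pass. Among all tested clusters with a protein match, the match was spread over several frames in 27.7% of those that rose, 16.3% of those that fell and 31.2% of those that did not pass. Below a mean of 100 counts it was 8 of 11 members that rose and 1 of 4 that fell, against 31.6% and 25.9% of all such clusters. Homoserine kinase, Cluster-2051.112910 of histidinol dehydrogenase and Cluster-2051.91308 of aspartokinase rose with a match in 1 frame, of 1074, 1446 and 1341 bp. The 4 other members that rose with a match in 1 frame had shorter ones, of 312 bp (Cluster-2051.83016), 573 bp (Cluster-2051.90163), 621 bp (Cluster-2051.85691) and 621 bp (Cluster-2051.112597). What a spread match means for the level of a cluster was not tested.

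Not all members are cactus transcripts by their best hits. The best nucleotide hit names *Escherichia* or *Shigella* for 37 members, of which 1 was tested and did not pass. Together these 37 held 2.38 to 3.71 CPM at 3% sucrose and 2.33 to 4.04 CPM at 8% sucrose, overlapping ranges that make up 0.0864% to 0.3341% of the members' counts. Since none of these 37 was called, leaving them out could not change the counts of 46 members that fell and 16 that rose. An NR hit, or with none a Swiss-Prot hit, from a green plant was found for 174 of the 197 members.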

How the data were processed

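Poly(A) RNA of suspension cells was sequenced as read pairs in 6 libraries, 3 per medium, grouped by the growth medium that the labels give. The submitters' processing notes name FastQC, Trimmomatic 0.36, Bowtie2 and RSEM. Which assembler, clustering tool and differential test the authors used is not given in the sources used here. The NEBNext Ultra kit, named in the labels' protocols, keeps no strand information, and antisense reads are therefore counted with the gene. The authors deposited an expected count per cluster and library (45.4% of values are not whole), which was rounded after any summing. FPKM per library, the log2 ratio with its q-value, the cluster length and the hits are deposited values per the file headers. FPKM served to compare levels between steps, and for histidinol dehydrogenase also between media. The authors' log2 ratio and q-value served only to count their calls.

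After edgeR's filterByExpr had removed low counts, TMM scaling and edgeR 4.0.16's quasi-likelihood test (in R 4.3.3) were run on 85038 clusters without covariates. A call needed a Benjamini-Hochberg adjusted p under 0.05. CPM use TMM-scaled library sizes. The SE was taken as the absolute log2 fold change over the square root of the F statistic. The tests were also run on simulated data with less spread between libraries and far fewer changed rows than here. That run cannot show how often the calls are right in these data. Libraries of one medium differed by more than counting noise (chi-square per cluster 8.31 to 15.7), so none was merged as a second deposit of another. This does not show whether they were separate cultures. The common biological coefficient of variation was 41.4%.

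The members and the lists of steps were chosen with earlier results of these data known. Named by rule were, for each step, the tested member with the highest mean count, for each family the riser and the faller of smallest adjusted p, and all step sums. Other clusters named were chosen after their values had been seen. Alternatives were DESeq2 1.42.0 and its size factors, other count filters, a replicate block, a fold minimum, stricter or plant-only hits and leaving out each library. Added after seeing the data were library totals only, a mean of at least 100 counts, the authors' q-values and leaving out *Escherichia* or *Shigella* hits. The last of these only dropped members that had no call, without a refit. Figures were drawn with matplotlib 3.10.9.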

Additional observations from a re-analysis of the deposited data

How the results depend on the processing

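No member that fell or rose changed sign in any of the 12 refits of the cluster table. The call held in all of them for 42 of the 46 members that fell and for 14 of the 16 that rose. Leaving out each library in turn gave 44 to 48 members that fell and 14 to 19 that rose. By family these ranges were 17 to 19 and 6 to 8 for aspartate, 11 to 15 and 4 to 6 for branched-chain, 7 to 8 and 0 to 1 for arginine, and 7 and 4 to 5 for histidine, with 16 to 17 steps that fell and 1 that rose. The number of arginine clusters that rose was also 0 with no low-count filter and with the replicate block. With the mean of at least 100 counts 5 members rose. With a change of at least 2-fold 2 histidine clusters and 9 steps fell. With library totals only 3 steps rose: homoserine kinase, diaminopimelate aminotransferase (log2 fold change 0.24) and threonine dehydratase (0.17). 

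Scaling by library totals alone moved the median log2 fold change of all clusters from 0.19 to 0.35, so changes of that size depend on the scaling. Threonine dehydratase, apart from its rise with library totals only, did not pass the test and changed sign. Its main cluster gave -0.049 with DESeq2 size factors, -0.064 with DESeq2 and -0.009 with no filter, and between -0.08 and 0.061 when 1 library was left out. Its step sum gave -0.05, -0.073 and -0.007 with DESeq2 size factors, with DESeq2 and with at least 10 counts in 3 libraries, and between -0.059 and 0.078 when 1 library was left out. The cause was not tested.

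Replicate numbers are shared between the media, and no pairing of the libraries is stated. Same-numbered libraries deviated together with correlations of only 0.0312, 0.0044 and 0.0134 across clusters, which cannot show whether they were paired. Not every library correlated best with its own number. With the number as a replicate block 45 members fell and 14 rose, and 17 steps fell and 1 rose. At this depth 81 members had too few counts to be tested, and 48 of the 63 tested members with a mean under 100 counts did not pass.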
